A study of Arabidopsis thaliana with 48 samples.

Results

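Most Arabidopsis genes with an enriched N6-methyladenosine (m6A) region in unstressed wild-type rosette leaves held a single one, and the genes described here held several. The m6A peak intervals of the 3 unstressed wild-type (Col-0) libraries were merged strand by strand, and a merged interval was kept as a region when 2 or more of the 3 libraries held it. Of 13322 merged intervals, 10742 were kept, and 1287 of these lay in 616 genes that held 2 or more. These 1287 regions are the members. With 1 of the 3 libraries left out and both others required, there were 551 members in 265 genes without replicate 1, 496 in 241 without replicate 2 and 1134 in 542 without replicate 3, so that membership rested mostly on replicates 1 and 2. A further 9232 regions were the only one of their gene, and 223 lay outside the gene spans of the count tables, which list 27655 genes. The members were thus chosen by peak presence in unstressed wild type, and their presence there is a description with no test. Of the members, 533 were held by exactly 2 and 754 by all 3 of those libraries. Just outside the rule, 677 of the 9232 genes with 1 region held a further interval that 1 library alone contained.

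The mark is laid on messenger RNA by a methyltransferase complex whose catalytic subunit in Arabidopsis is MTA, at adenosines in a short consensus sequence. In plants as in animals it is concentrated near the stop codon and in the 3′ untranslated region. Proteins with a YTH domain bind it, and it is known to act on the stability, processing and translation of the transcripts that carry it.

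The series holds 48 libraries from rosette leaves, with 4 assays on each of 4 groups and 3 replicates. The mta drought group and the mta control group are a line written mta ABI3:MTA, in which an mta mutant carries MTA under the ABI3 promoter. That promoter is active in the embryo, so the line passes embryogenesis and is a mutant of later growth, when the promoter is largely silent. The WT drought group and the WT control group are Col-0. Drought was imposed on 17-day-old seedlings by withholding water for 12 days, and both control groups were watered throughout. The assays were sequencing of poly(A) RNA kept as the input of the immunoprecipitation (mRNA), of the m6A immunoprecipitate, of RNA from fractions holding polysomes, and of uncapped and cleaved RNA ends (GMUCT). The labels do not say whether replicates were separate plants or pools, so a p-value here speaks only to the variation among these libraries.

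The gene MTA itself, targeted in the mutant, had 10.6, 8.26 and 9.79 CPM (counts scaled to equal library size) in the mta drought mRNA libraries, against 26, 25.3 and 18.9 CPM in WT drought. In the controls it had 9.75, 6.97 and 7.4 CPM in mta, against 17.7, 18.2 and 18.9 CPM in WT. The groups did not overlap, and the log2 fold change was −1.28 ± 0.18 (SE) under drought (edgeR quasi-likelihood, adjusted p = 3.07e-06) and −1.16 ± 0.19 without it (adjusted p = 9.6e-05). Transcript thus remained, and counts over the whole gene do not show which allele it came from. Total gene counts ran from 1504013 to 5503037 in mRNA, from 1313457 to 12421168 in GMUCT and from 35833742 to 43032763 in polysomal libraries. The 1504013 belonged to WT control mRNA replicate 3, against 5445693 and 4717628 in WT control replicates 1 and 2. The deposited peak lists differed in length: 8764, 7746 and 10357 peaks in mta drought, 11070, 8374 and 12145 in mta control, 11805, 11641 and 12065 in WT drought, and 11647, 12228 and 8269 in WT control. The list of WT control replicate 3 stood apart and held 65.1% of the members, against 96.1% and 97.4% in the others. The 32 photosynthesis genes of the leaf marker list summed to 23964 to 25889 CPM in mta drought, 93951 to 104637 in mta control, 17762 to 17968 in WT drought and 79261 to 87837 in WT control. The 3 root markers summed to 52.9 to 59.2 CPM in mta drought, 193 to 198 in mta control, 32.5 to 35.4 in WT drought and 119 to 140 in WT control. The 4 flower markers summed to 0.799 to 1.52 CPM in mta drought, 0.406 to 2.29 in mta control, 0.456 to 2.47 in WT drought and 4.2 to 7.77 in WT control, and the 4 seed markers to at most 0.705 in any library.

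The members lay along the whole gene, where regions that were the only one of their gene lay almost entirely at its 3′ end. Of the members, 21.8% (281) had their centre in the first 25% of the gene span, 10.3% in the next, 11.8% in the next and 56.1% (722) in the last. For regions that were alone in their gene the last 25% held 91.6% (8452 of 9232) and the first held 180. Within a gene with several regions, the 3′-most had a median position at 93.3% of the span and the 5′-most at 29.2% (616 genes), and single regions had theirs at 92.4%. The 3′-most region of such a gene thus sat where a single region usually sits. Widths were alike, with medians of 204.5 bases for 3′-most, 169 for 5′-most and 201 for single regions. Spans include introns, since no exon annotation was used, and a region split by an intron would be counted as 2.

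**Figure D1:**
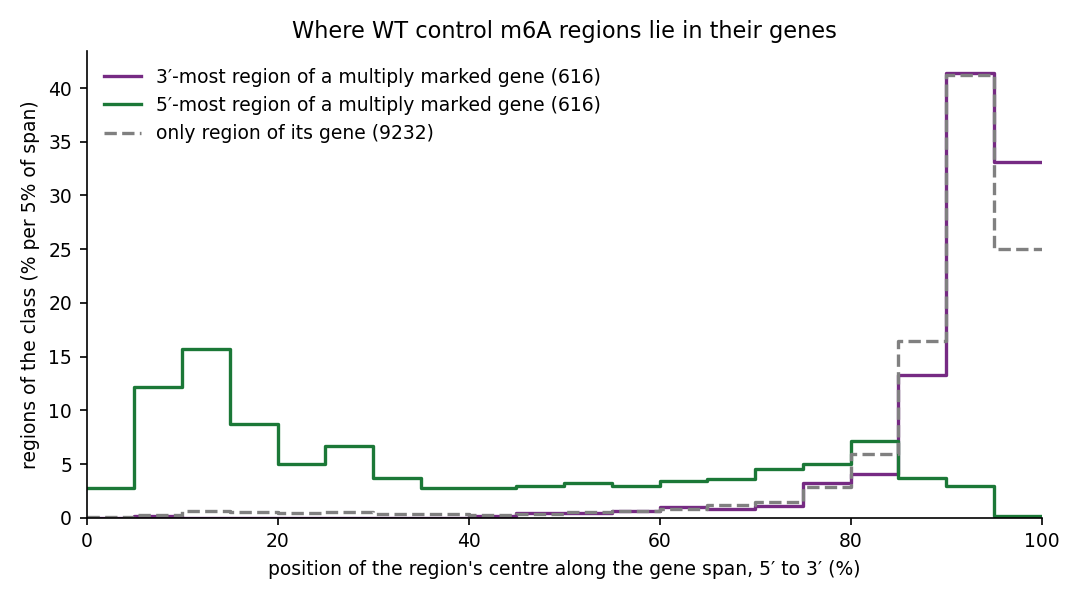
Position of m6A regions along the gene span (x axis, percent of the span from the 5′ end) against the share of each class per bin (y axis, percent) for 3′-most and 5′-most members of 616 genes and for 9232 regions that are the only one of their gene. The 3′-most members and the single regions peak at the same place, and the 5′-most members spread over the whole span with a median at 29.2%.

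Gaps between neighbouring members varied widely. Counted on the genome with introns included, they had a median of 1239 bases over 671 neighbouring pairs. Of these gaps, 301 were of at most 1000 bases, 209 of at most 500, 99 of at most 200 and 17 of at most 100. Most genes held 2 regions (574), 34 held 3, 6 held 4, RPP4 held 5 and AT1G58602 held 8. The 616 genes were longer than those with 1 region, with a median span of 3367.5 bases against 2773. They were also more abundant per length, with a median WT control level of 11.6 CPM per kilobase, against 8.9 for genes with 1 region. All 5 chromosomes carried members, from 151 on chromosome 2 to 357 on chromosome 1.

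Few genes of the pathways on which drought and m6A studies usually turn carried more than 1 region. Among the gene lists examined, 0 of 32 photosynthesis genes, 0 of 36 drought and abscisic acid genes, 0 of 12 chaperones, 0 of 12 clock genes, 0 of 14 salicylate and immune genes and 0 of 9 light receptors were members. The same held for 0 of 3 m6A writers, 0 of 12 readers, 0 of 11 mRNA decay genes and 0 of 11 RNA silencing genes. The lists were limited to the 171 genes whose symbol paired with RefSeq, which left out 8 genes with no symbol there and 2 with another one, among them the writers MTB, VIR and HAKAI and 4 mRNA decay genes, each with at most 1 region. PAB4, a poly(A)-binding protein, was the 1 member among 8 genes of translation initiation and poly(A) binding. Over all genes tested in mRNA the share was 3.46%, so that lists of this size would hold few members in any case. MTA itself held 1 region.

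Presence of the members was lowest in mta drought by its mean, but no difference between groups passed a test. In mta drought the 3 libraries held 67.1%, 62% and 78% of the 1287 members, in mta control 80.8%, 70.0% and 85.2%, and in WT drought 82.4%, 83.9% and 84.5%. The means were 69.0 ± 8.18%, 78.7 ± 7.83% and 83.6 ± 1.09% (SD, n = 3 each). All 3 mta drought libraries lay below all 3 WT drought libraries, while mta drought and mta control overlapped. The difference was −14.6 percentage points for mta drought minus WT drought (2-sided exact permutation p = 0.1, the smallest that 3 against 3 libraries can give, adjusted p = 0.25 over 5 tests) and −9.66 points for mta drought minus mta control (exact p = 0.2, adjusted p = 0.333). With single libraries left out the second difference ran from −14.2 (without mta drought replicate 3) to −6.15 (without mta drought replicate 2). The members were chosen in WT control, which shares its genotype with WT drought and its watering with mta control. That choice could favour WT drought and mta control over mta drought, and these p-values do not account for it. The peak lists differed in length, and their part in these shares was not tested on its own. With each list limited to its 7746 best peaks, which also changed the members (337, an alternative added after seeing the data), mta drought held 77.4%, mta control 78.8% and WT drought 80.8%, and the first difference was −3.36 points (exact p = 0.3).

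Counted by region, the share of members lost was near that of regions in general in mta and above it in WT drought. In mta drought, 239 members (18.6%) were held by 0 of 3 libraries, against 18.3% of all 10742 regions, and 910 (70.7%) by 2 or more, against 70.8%. In mta control, 136 members (10.6%) were held by 0 libraries, against 12.2% of all regions, and 1037 (80.6%) by 2 or more, against 75.5%. In WT drought, 113 members (8.78%) were held by 0 libraries, against 6.31%, and 1090 (84.7%) by 2 or more, against 90.0%. All 12 libraries held 460 members (35.7%), against 43.1% of all regions. Exactly 2 WT control libraries held 41.4% of members, against 24.5% of single regions and 27.3% of all regions. Members thus stood nearer the threshold of the rule. In the 4 parts of the span from the 5′ end, WT drought held 75.7%, 80.3%, 73.9% and 89.3% of members. For single regions the shares were 63.5%, 60.5%, 85.7% and 91.5%. The part of threshold and position in the losses was not tested. Over the 9 libraries outside WT control, members minus single regions came to −0.851 percentage points (2-sided exact sign-flip permutation p = 0.66, adjusted p = 0.66), with 3 of 9 libraries positive. The 3 positive libraries were the mta control ones, where members exceeded single regions by 5.45 points on average, against −1.43 points in mta drought and −6.57 in WT drought. With equal peak numbers, a setting added after seeing the data, the difference over the 9 libraries turned positive, at 4.36 points (exact sign-flip p = 0.00781, not adjusted). The 9 libraries came from 3 groups with unlike means and were scored on the same regions, so these p-values speak to these libraries only. The difference was also positive without WT control replicate 2 (1.00), without WT drought replicate 1 (0.108), at a stricter peak threshold (1.22) and for regions of all 3 WT control libraries (1.17).

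Where the region lay in its gene separated the mta libraries from the WT drought libraries. In mta leaves the 3′-most region of a gene was missing more often than the 5′-most, and in WT leaves under drought it was the other way round. In mta drought the 3′-most members were held at 64.0%, 57.8% and 75.6% (65.8 ± 9.07%), and the 5′-most members of the same genes at 70.9%, 67.4% and 81.2% (73.2 ± 7.16%). In mta control the 3′-most were held at 72.6%, 56.8% and 81.0% (70.1 ± 12.3%), and the 5′-most at 88.8%, 82.5% and 89.4% (86.9 ± 3.86%). Every mta library thus held fewer 3′-most than 5′-most members. In WT drought the 3′-most were held at 92.0%, 89.8% and 91.6% (91.1 ± 1.2%), and the 5′-most at 73.1%, 78.6% and 77.9% (76.5 ± 3.02%). In WT control, which chose the members, the 3′-most were at 97.2%, 98.5% and 79.5%, and the 5′-most at 94.8%, 96.1% and 53.1%.

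**Figure D2:**
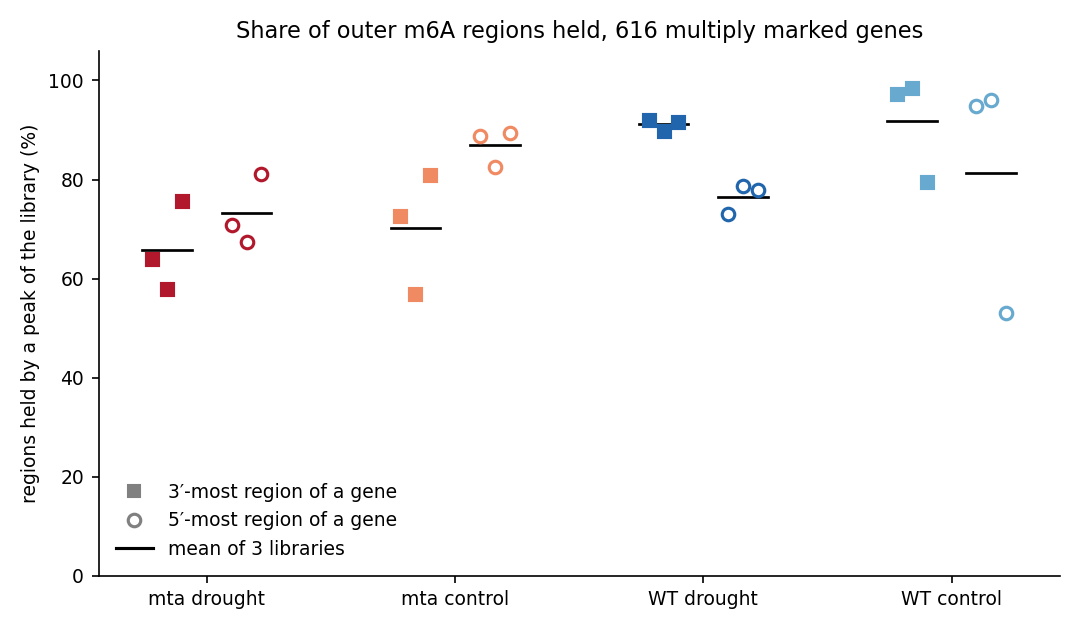
Share of 616 3′-most (squares) and 616 5′-most (open circles) members held by each of the 12 m6A libraries (y axis, percent), by group (x axis), with the group mean as a bar. In all 6 mta libraries the 3′-most share is the lower of the pair, and in all 3 WT drought libraries it is the higher; the WT control libraries chose the members.

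The 3′-most minus 5′-most difference was −6.98, −9.58 and −5.52 percentage points in mta drought, −16.2, −25.6 and −8.44 in mta control, 19.0, 11.2 and 13.6 in WT drought and 2.44, 2.44 and 26.5 in WT control. The mta drought and WT drought values did not overlap, and their means differed by −22.0 points (2-sided exact permutation p = 0.1, the smallest possible, adjusted p = 0.25 over 5 tests). This test does not account for the choice of members in WT control, which has the genotype of WT drought. The size within each group depended on which WT control libraries chose the members. Without WT control replicate 1 the means were −11.3 points in mta drought and 7.17 in WT drought, and without replicate 2 they were −12.9 and 6.64 in the same groups. Averaged over the 9 libraries outside WT control the difference was −3.17 points (exact p = 0.531, adjusted p = 0.66), and it ran from −7.42 (without WT control replicate 2) to −0.365 (without mta control replicate 2) with single libraries left out and was −8.7 (exact p = 0.0664) for regions of all 3 WT control libraries. In this average the mta and WT drought libraries had opposite signs, so its p-values speak to a mixture of 3 unlike groups. Unlike the total share, the contrast between mta drought and WT drought was about as large with equal peak numbers. There the 3′-most were held at 71.3% in mta drought, 71.3% in mta control and 86.1% in WT drought, the 5′-most at 83.2%, 86.7% and 75.4% in the same groups, and the difference between mta drought and WT drought was −22.6 points (exact p = 0.1). The 5′-most members also stood nearer the threshold of the rule, with 345 of 616 held by exactly 2 WT control libraries, against 152 of 616 of the 3′-most.

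The size of the contrast varied with where both regions sat, and in mta drought so did its sign. In the 385 genes whose outer regions lay on either side of the midpoint of the span, the 3′-most minus 5′-most difference averaged −12.3 points in mta drought, −21.1 in mta control and 14.1 in WT drought. In the 226 genes with both outer regions beyond the midpoint, towards the 3′ end, it was 1.62 points in mta drought (2.65, −1.33 and 3.54 in its libraries), −9.14 in mta control and 15.6 in WT drought. Split by gene span, the longest of 3 equal sets of genes had 3.07 points in mta drought, where the shortest had −13.5 and the middle set −11.7. Position itself, without regard to other regions, gave a like picture. Members in the first 25% of the span were held at 78.4% in mta drought, 93.7% in mta control and 75.7% in WT drought. Members in the last 25% were held at 64.2%, 70.3% and 89.3% in the same groups. Single regions in the first 25%, of which there were 180, were held at 64.1% in mta drought, 92.2% in mta control and 63.5% in WT drought. Those in the last 25% were held at 70.7%, 72.6% and 91.5%. The order of the ends in mta control and WT drought was thus shared by genes with 1 region, while in mta drought single regions were held more at the 3′ end. For single regions the last minus the first 25% came to 6.6 points in mta drought (4.46 to 8.54) and 28 in WT drought (21 to 33.5). A lower difference in mta drought than in WT drought, without overlap, was thus also seen in genes with 1 region.

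Within single genes the same contrast showed as a loss of one end. In the 574 genes with exactly 2 regions, 2 or more mta drought libraries held both regions in 308 genes, the 3′ region alone in 73, the 5′ region alone in 126 and neither in 67. For mta control the counts were 370 with both, 39 with the 3′ region alone, 137 with the 5′ region alone and 28 with neither. For WT drought they were 424 with both, 101 with the 3′ region alone, 19 with the 5′ region alone and 30 with neither. When 1 end was missing, it was most often the 3′ end in mta and the 5′ end in WT drought. Library by library, genes with the 5′ region alone numbered 121, 144 and 102 in mta drought, 136, 205 and 91 in mta control and 14, 31 and 21 in WT drought.

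**Figure D3:**
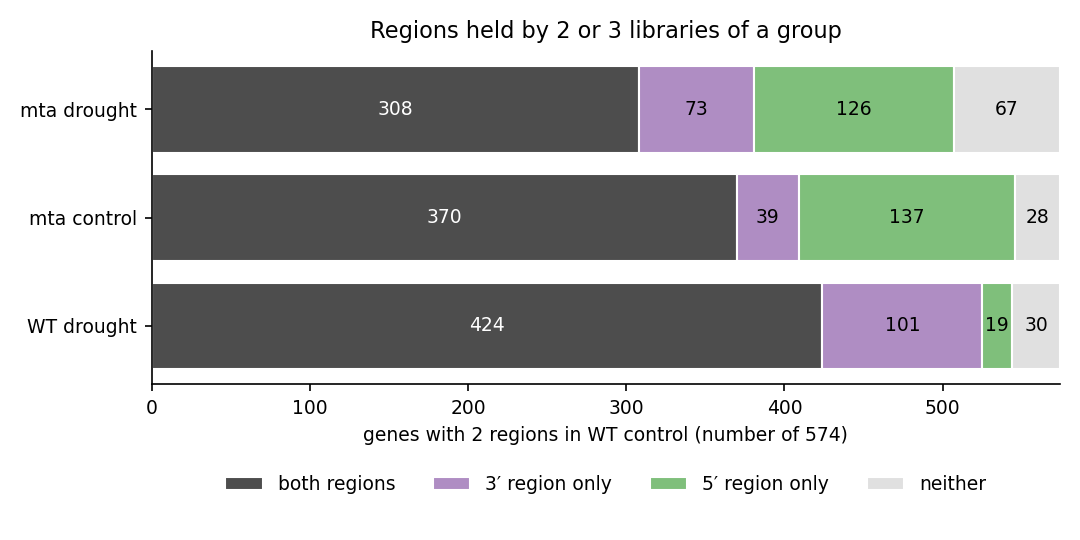
The 574 genes with exactly 2 m6A regions, by which of their regions were held in 2 or more of the 3 libraries of a group (y axis, groups; x axis, number of genes). The 5′ region alone remained in 126 genes in mta drought and 137 in mta control, and in 19 in WT drought.

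The authors' fold enrichment of each peak could be ranked within a library for 75 of these genes, whose regions were both held in all 12 libraries. The 3′ region had the higher value in 65.3%, 50.7% and 56% of the genes in mta drought, in 50.7%, 45.3% and 46.7% in mta control, in 70.7%, 68% and 66.7% in WT drought and in 80%, 85.3% and 69.3% in WT control. The highest mta library, at 65.3% (49 of 75 genes), lay only just below the lowest WT library, at 66.7% (50 of 75 genes). These ranks were taken within each list and were not tested.

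Of the members, 92 (7.15%, against 7.88% of all regions) were held by none of the 6 mta libraries, and 58 of these were 3′-most and 28 were 5′-most. All 6 WT and none of the 6 mta libraries held 14 members (1.09%, against 1.16% of all regions), of which 11 were 3′-most and 2 were 5′-most. In mta control against WT control the mRNA of the 14 genes had log2 fold changes between −0.35 and 0.16, with a median of −0.06. Under drought, 10 of the 14 were lower and 1 higher in mta than in WT, where 54.4% of member genes and 26.1% of all genes were lower. In 7 of these genes another region was held by all 12 libraries, so that 1 gene held both a lost and a retained region. Regions were placed on gene spans, so whether both lay on the same transcript cannot be told.

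Among these 7, J20, a co-chaperone of the plastid that hands clients to Hsp70, had a 3′ region at chr4:8012624-8012738 (TAIR10, plus strand, 89.6% of the span) held by all 6 WT and 0 of 6 mta libraries. Its 5′ region at chr4:8011514-8011737 (34.4%) was held by all 12. J20 mRNA was at 81.9, 81.5 and 88.6 CPM in mta drought, 123, 109 and 115 in mta control, 111, 101 and 94.9 in WT drought and 132, 112 and 119 in WT control. It was little lower in mta drought than in WT drought (log2 −0.28 ± 0.10, adjusted p = 0.0218), where its uncapped share was higher (0.50 ± 0.15, adjusted p = 0.0213).

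AT1G29790 lost a region at chr1:10431764-10431924 (plus strand, 88.4% of the span) in all 6 mta libraries and kept one at chr1:10430146-10430407 (23.2%) in all 12. MGP4, named for a defect of the male gametophyte, lost chr4:513182-513468 (minus strand, 90.3%) and kept chr4:515431-515627 (11.6%). In AT3G50690 and AT5G55040, each with 3 regions, the 3′-most was lost in mta at 94.4% and 91.3% of the span while the 5′-most stayed in all 12 libraries.

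The other two of the 7 did not lose the 3′ end. NF-YC9, a subunit of the CCAAT-binding factor NF-Y, lost its middle region at chr1:2883856-2883950 (76.2%) and kept both others, including the 3′-most at 88.4%. EMB2754, named for an embryo defect, lost its 5′-most region at chr4:17272422-17272567, which lies late in the gene at 85.0% of the span, and kept the 3′-most at 94.9%. EMB2754 mRNA was 44.5, 46.1 and 55.3 CPM in mta drought, against 116, 113 and 104 CPM in WT drought (log2 −1.19 ± 0.12, adjusted p = 2.48e-08), and the groups did not overlap.

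**Figure D4:**
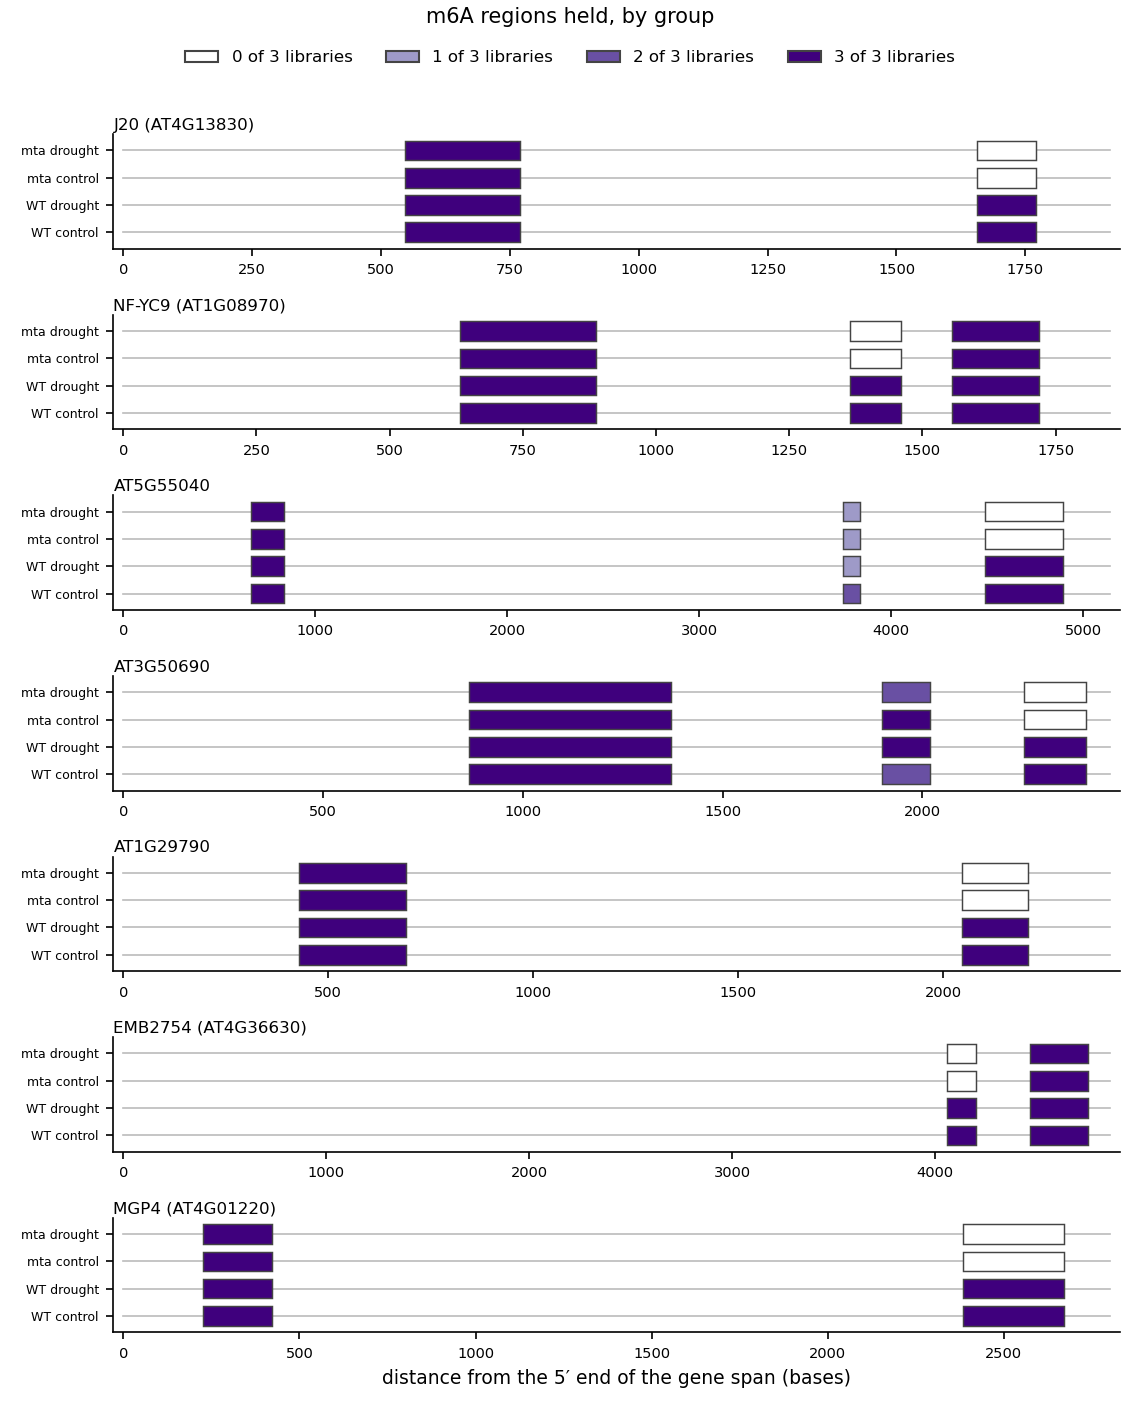
Members of the 7 genes with a region lost in mta and another held by all 12 libraries, drawn along the gene span (x axis, bases from its 5′ end), each region shaded by the number of libraries of a group that held it, with 1 row per group. Regions near the right end are white (held by 0 libraries) in both mta rows for J20, AT1G29790 and MGP4, and their left regions are dark in all rows.

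The reverse pattern, a region kept in mta and gone from WT under drought, fell on 5′-most regions. All 6 mta and none of the 3 WT drought libraries held 15 members (1.17%, against 0.307% of all regions), and 14 of the 15 were 5′-most. In WT drought against WT control 12 of them fell and 2 rose, with a median log2 fold change of −1.83, where 35.3% of all genes fell and 32.6% rose. Under drought 9 were higher and 3 lower in mta than in WT, with a median of 1.05, where 26.6% of all genes were higher and 26.1% lower. In mta drought against mta control 10 of the 15 fell and 2 rose (median −0.62, where 35.3% of all genes fell and 35.1% rose). That all 3 mta drought libraries kept the region was part of the choice of these 15. In mta control against WT control 5 were higher and 4 lower. The part of transcript level in the loss was not tested.

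MC2, a metacaspase, had 14.2, 13.9 and 14.9 CPM in mta drought, 24.8, 21.5 and 19.4 in mta control, 0.228, 0.824 and 1.35 in WT drought and 11, 9.31 and 8.4 in WT control. Its 5′ region at chr4:12889599-12889792 (20.3% of the span) was held by all 6 mta, 0 WT drought and 2 WT control libraries. DAR3, a member of the DA1-related family, showed the same presence at 22.1% of its span, with 20.7, 18.4 and 21.3 CPM in mta drought, against 0.912, 0.549 and 0.676 CPM in WT drought. WRKY47, a transcription factor of the WRKY family, kept its 5′ region (79.9% of the span) in all 6 mta libraries and lost it in WT drought, and its 3′ region (93.0%) was held by 3 WT control libraries and no other. Its mRNA was 30.6, 33.8 and 39.9 CPM in mta drought, against 7.52, 7.69 and 6.09 CPM in WT drought (log2 2.3 ± 0.19, adjusted p = 1.39e-09).

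PAB4 had the same pattern without a gain of mRNA. Its 5′ region at chr2:9943116-9943247 (7.76% of the span) was held by all 6 mta, 0 WT drought and 2 WT control libraries, and its 3′ region at 93.7% by all 12. PAB4 mRNA was 46.5, 47.2 and 41.1 CPM in mta drought, 105, 88.5 and 87.6 in mta control, 102, 104 and 99.2 in WT drought and 141, 129 and 135 in WT control. It was lower in mta than in WT, both under drought (log2 −1.18 ± 0.10, adjusted p = 4.01e-09) and without it (−0.53 ± 0.10, adjusted p = 0.000479).

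Under drought, 77 members (5.98%, against 5.07% of all regions) in 59 genes were held by none of the 6 drought libraries. Of the 58 of these genes tested in mRNA, 44 fell and 6 rose in mta drought against mta control (median log2 −1.35), where 35.3% of all genes fell and 35.1% rose. In WT drought against WT control 41 fell and 7 rose (median −1.45), where 35.3% of all genes fell and 32.6% rose. All 6 control and none of the 6 drought libraries held 8 members (0.622%, against 0.568% of all regions), in 6 genes. They were AT3G22142 with 3 such regions, RLP51, a receptor-like protein of immune signalling, PERK14, a receptor kinase of the proline-rich extensin-like family, HVA22H, AT2G45340 and AT1G31710. AT3G22142 had 0, 1.07 and 1.47 CPM in mta drought, 190, 47.2 and 89.7 in mta control, 2.28, 3.3 and 2.03 in WT drought and 122, 73.3 and 193 in WT control. RLP51 had 2.02, 2.93 and 1.71 CPM in mta drought, 40.8, 21.5 and 31.5 in mta control, 0.912, 1.92 and 0.225 in WT drought and 34.9, 24.9 and 37.1 in WT control. In both genes every drought library was below every control library. HVA22H was at 0, 0.266 and 0 CPM in mta drought and 0, 0 and 0.225 in WT drought, against 7.58 to 14.6 CPM in the 6 control libraries (adjusted p = 3.07e-09 in mta and 4.13e-10 in WT). Whether the remaining transcripts carried the mark cannot be told from these lists.

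Over all members, regions missing under drought lay in genes whose mRNA was lower there than in the control of the same genotype, and for regions missing in mta control no such shift against WT control was seen in the medians. The 113 members held by 0 WT drought libraries lay in genes whose median log2 mRNA change, WT drought against WT control, was −1.58, against −0.03 for members held by 1 or 2 libraries and 0.19 for those held by 3. For 3′-most members held by 0 WT drought libraries (32) the median was −2.62, and for 5′-most ones (75) it was −0.98. In mta control the 91 3′-most members held by 0 libraries lay in genes with a median log2 change against WT control of −0.05, and the 326 held by all 3 had −0.04. In mta drought against mta control, members held by 0 mta drought libraries lay in genes with a median of −0.66, against −0.38 for those held by 1 or 2 and −0.24 for those held by 3, the same order as in WT. Set against WT drought, the genes of members held by 0 mta drought libraries had a median of −0.35 and those held by 3 had −0.47. These medians are descriptions, since regions of 1 gene share its mRNA value.

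The genes with the most regions differed in how many they kept. AT1G58602 (chromosome 1, plus strand, span 19695 bases) held 8, of which 4 were held by all 12 libraries and 3 by 10 of them. The 3 regions nearest its 5′ end, between chr1:21747788 and chr1:21753563, were each held by all 12, and the region at chr1:21764590-21764793 (93.1%) was held by 3 WT drought, 2 WT control and 0 mta libraries. Its mRNA was 302, 268 and 313 CPM in mta drought, against 192, 185 and 182 CPM in WT drought (log2 0.66 ± 0.12, adjusted p = 8.2e-05). RPP4, a resistance gene against downy mildew, held 5, and its mRNA fell under drought to 43.7, 38.4 and 41.6 CPM in mta drought, against 107, 95.2 and 91.8 in mta control (log2 −1.25 ± 0.13, adjusted p = 1.91e-08). Its 3′-most region, at chr4:9484313-9488974, was in all 12 libraries, and the 4 others were in 0 to 2 mta drought libraries. That 3′-most region was 4662 bases wide, against a gene span of 7372, and its centre lay beyond the 3′ end of the gene. A peak overlapping it by 1 base counted, so whether the peaks of all 12 libraries lay within RPP4 cannot be told. Near-identical copies of such resistance genes exist, so read counts and peaks of AT1G58602 and RPP4 are uncertain.

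Of the 6 genes with 4 regions, LINC1, a coiled-coil protein of the nuclear lamina, kept all 4 in 2 or more libraries of every group. PMR6, a pectate lyase-like protein, kept the 2 regions nearest its 5′ end in all 12 libraries and had the next one at chr3:20345765-20345972 in 0 mta drought, 3 mta control, 2 WT drought and 2 WT control libraries. AT3G05410 kept its 3′-most region (98.4%) in all 12 libraries and had its other 3 regions in 0 mta drought and 3 mta control libraries each, and in 3, 0 and 1 WT drought libraries from the 5′ end. Its mRNA differed in none of the 4 comparisons of groups by edgeR's test, at 13.4, 12.5 and 13.2 CPM in mta drought, against 11.6, 19 and 17.1 CPM in mta control. AT4G36980 had its inner regions at 61.1% and 77.5% in 0 mta drought, 0 and 1 mta control, 0 WT drought and 2 WT control libraries, so that both were scarce outside WT control. In 2 genes with 3 regions each, all were held by all 12 libraries: GTB1, an SPT6-like factor of transcript elongation, and AT5G08450, annotated as a histone deacetylation complex protein.

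In drought, 54.4% of multiply marked genes had less transcript in mta than in WT, and without drought 10.3% did. Of 612 member genes tested, 333 were lower (54.4%) and 72 higher (11.8%) in mta drought than in WT drought, where 26.1% of all 17666 genes tested were lower and 26.6% higher (edgeR quasi-likelihood, adjusted p below 0.05). The median log2 fold change was −0.46 over member genes and 0.01 over all genes. In mta control against WT control 63 were lower (10.3%) and 34 higher (5.56%), against 9.28% and 8.50% of all genes. Leaving out single libraries moved the 34 to 20 without WT control replicate 1, 15 without WT control replicate 2 and 22 without mta control replicate 3, and the 63 to 36 without WT control replicate 1 and 41 without mta control replicate 3. Genes with 1 region stood between, with 32.3% lower and 20.4% higher in mta drought than in WT drought.

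Among member genes past the threshold with a mean log2 CPM of at least 2, those lowest in mta drought relative to WT drought were AT2G22795, ABCC14, GIL1 and AT5G42310. AT2G22795 had 6.57, 7.99 and 9.3 CPM in mta drought, against 29.4, 26.9 and 29.3 CPM in WT drought (log2 −1.84 ± 0.18, adjusted p = 2.37e-08). ABCC14, an ATP-binding cassette transporter, had 61.2, 72.7 and 83.5 CPM, against 243, 252 and 213 CPM (−1.70 ± 0.16, adjusted p = 1.37e-08). In each of these genes all mta drought libraries lay below all WT drought libraries. GIL1, named for gravitropism in the light, differed by −1.68 ± 0.15 on the log2 scale (adjusted p = 3.56e-09). The highest were DAR3 (4.75 ± 0.34, adjusted p = 1.24e-10) and MC2 (4.11 ± 0.33, adjusted p = 6.92e-10), then PERK15, a relative of PERK14 (3.21 ± 0.42, adjusted p = 1.45e-06), and AT5G07770 (2.60 ± 0.18, adjusted p = 8.24e-11).

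Without drought the largest differences were in EXT3, an extensin of the cell wall, at 2976, 1496 and 1926 CPM in mta control, against 661, 485 and 739 CPM in WT control (log2 1.77 ± 0.20, adjusted p = 8.24e-07), in WRKY47, MC2 and ABCC12 upwards, and in STM, AT4G28350, AT5G41100 and PATL2 downwards. STM, the homeobox gene of the shoot meristem, had 10.6, 10.2 and 12.3 CPM in mta control, against 23.1, 24.9 and 32.2 CPM in WT control (−1.2 ± 0.17, adjusted p = 2.01e-05). PATL2, a patellin of membrane trafficking, had 67.2, 51.5 and 57.5 CPM, against 113, 116 and 122 CPM (−0.98 ± 0.12, adjusted p = 1.67e-06). The summed flower markers were also lower and the summed root markers higher in mta control than in WT control, without overlap, and their part in these differences was not tested. Of the 3 root markers, PYK10 was at 39.3 CPM per kilobase in WT control, and COBL9 and RHD6 were at 0 there. Only 1 of the 3 root markers and 0 of the 4 flower markers had enough counts to be tested in mRNA. In bulk tissue, fewer cells of a type and less RNA per cell cannot be told apart.

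Drought itself moved many member genes in both genotypes. Under drought 311 fell (50.8%) and 133 rose (21.7%) in mta, where 35.3% of all genes fell and 35.1% rose. In WT drought against WT control 180 fell (29.4%) and 228 rose (37.3%), where 35.3% of all genes fell and 32.6% rose. The drought effect was lower in mta than in WT in 262 member genes (42.8%, against 18.0% of all genes) and higher in 58 (9.48%, against 19.6%). These comparisons share libraries with those between genotypes. PIP1;4, a plasma membrane aquaporin, rose in both, with 528, 502 and 527 CPM in mta drought against 217, 222 and 210 in mta control, and 840, 867 and 869 CPM in WT drought against 197, 195 and 200 in WT control. Its drought effect in mta minus that in WT was −0.86 ± 0.11 on the log2 scale (adjusted p = 2.49e-06). SCA3, the RNA polymerase of the plastid encoded in the nucleus, had 30.8, 36.8 and 42.1 CPM in mta drought against 47.7, 39.2 and 45.8 in mta control, and 64.7, 73.6 and 73.5 CPM in WT drought against 26, 26.9 and 26.6 in WT control. Under drought it rose in WT and fell in mta (log2 −0.28 ± 0.12, adjusted p = 0.0458), and the difference in drought effect, mta minus WT, was −1.69 ± 0.18 (adjusted p = 1.32e-07).

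**Figure D5:**
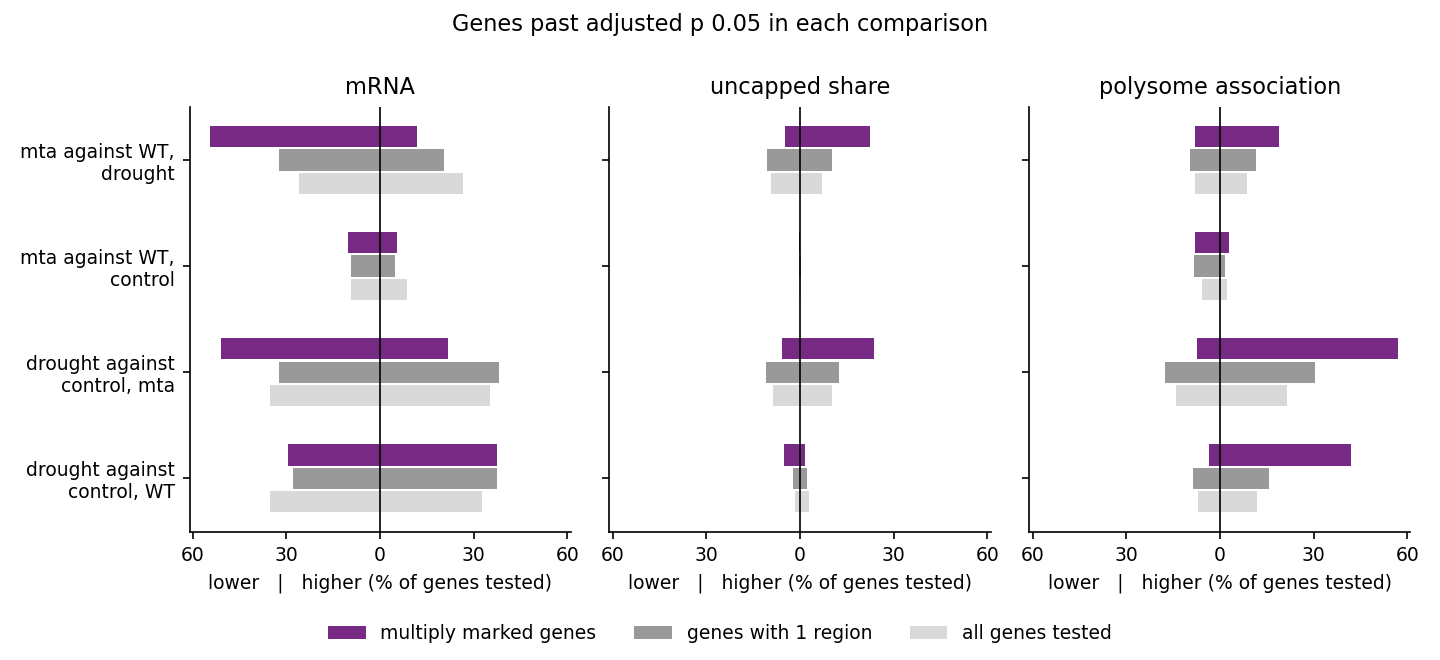
Share of genes (x axis, percent) that were higher or lower in each comparison of mRNA, uncapped share and polysome association, for the member genes, genes with 1 region and all genes tested, with shares lower drawn to the left and shares higher to the right. In mta drought against WT drought 54.4% of member genes and 26.1% of all genes are lower in mRNA.

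Gene span moved with these counts, and member genes are long. In mta drought against WT drought, 65.7% of member genes in the longest of 3 equal sets of tested genes were lower, against 44.0% of all genes of that set. In the middle set the shares were 45.7% and 21.9%, and in the shortest 22.7% and 12.2%. With the trend of each library along gene span removed, 311 member genes were lower (50.8%, against 30.1% of all genes) and 78 higher (12.7%, against 21.6%) in mta drought than in WT drought. For mta drought against mta control the same step gave 194 lower (31.7%, against 30.1% of all genes) and 217 higher (35.5%, against 39.6%) in place of 311 and 133.

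Uncapped and cleaved RNA stood higher relative to mRNA in a minority of multiply marked genes in drought-treated mta leaves. GMUCT counts were tested against mRNA counts of the same group in 1 model, which gives the uncapped share. Under drought, 138 member genes had a higher share in mta than in WT (22.5%) and 30 a lower one (4.90%), where 7.18% of all 19142 genes tested were higher and 9.28% lower. Between drought and control within mta, 145 were higher (23.7%, against 10.4%) and 36 lower (5.88%, against 8.64%). In WT drought against WT control 10 were higher (1.63%, against 2.93%) and 31 lower (5.07%, against 1.66%). In mta control against WT control 0 were higher (against 0.167% of all genes) and 1 was lower (0.163%, against 0.183%), while DESeq2 called 1 higher and 3 lower, and 20 were higher and 54 lower at an unadjusted p below 0.05. The drought effect on the uncapped share was higher in mta than in WT in 88 member genes (14.4%, against 3.79% of all genes) and lower in 16 (2.61%, against 3.38%).

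Among the genes named for their mRNA or regions, emb2746, called after an embryo defect, had an uncapped share higher by 1.3 ± 0.25 on the log2 scale in mta drought than in WT drought (adjusted p = 0.000455) and an mRNA of 13.1, 15.7 and 19.1 CPM in mta drought against 55.2, 47.8 and 45.8 CPM in WT drought. AT1G67120, which spans 26211 bases, had a share higher by 1.4 ± 0.33 (adjusted p = 0.00356), and GTB1 by 0.95 ± 0.24 (adjusted p = 0.00649). In AT1G07040 the difference was −0.84 ± 0.17 (adjusted p = 0.00104). The measure has mRNA in its denominator, so that lower mRNA with unchanged uncapped RNA also raises it, and GMUCT counts were made without regard to strand, so that reads of overlapping antisense genes cannot be told apart. With the trend along gene span removed, 54 member genes were higher (8.82%, against 4.12% of all genes) and 16 lower (2.61%, against 5.02%) in mta drought than in WT drought. The drought effect was then higher in mta than in WT in 15 (2.45%, against 1.10%) and lower in 6 (0.980%, against 1.09%). In mta drought against mta control the same step left 50 higher (8.17%, against 5.75%) and 43 lower (7.03%, against 7.49%). With single libraries left out, the 88 moved to between 44 (without mta control mRNA replicate 1) and 114, the 16 to between 8 (without WT control mRNA replicate 2) and 17, and the 31 lower in WT drought than in WT control to between 11 (without WT drought mRNA replicate 1) and 73 (without WT control mRNA replicate 3). Among the longest set of genes 31.9% of member genes and 16.5% of all genes were higher.

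Polysomal RNA stood higher relative to mRNA under drought in 57.1% of multiply marked genes in mta and 42.1% in WT, and in fewer once the trend along gene span was removed. The comparison of polysomal with mRNA counts, again in 1 model, gives the polysome association. In mta drought against mta control 350 of 613 member genes were higher (57.1%) and 44 lower (7.18%), where 21.6% of all 20392 genes tested were higher and 14.0% lower. In WT drought against WT control 258 were higher (42.1%, against 11.8%) and 21 lower (3.43%, against 6.93%). Under drought, 116 were higher in mta than in WT (18.9%, against 8.72%) and 48 lower (7.83%, against 8.03%). With the trend along span removed that balance turned, with 52 higher (8.48%, against 5.61%) and 64 lower (10.4%, against 7.37%). In mta control against WT control 17 were higher (2.77%, against 2.37%) and 49 lower (7.99%, against 5.89%). The 17 moved to 43 without mta control mRNA replicate 1 and to 31 with DESeq2 and with the trend along span removed. With the trend removed the 31 were 5.06%, against 2.84% of all genes. The 49 fell to 24 without mta control polysomal replicate 3, 27 without WT control polysomal replicate 2 and between 28 and 32 without 1 of 6 other libraries. The drought effect was higher in mta than in WT in 85 member genes (13.9%, against 6.79%) and lower in 16 (2.61%, against 2.80%). The uncapped share and the polysome association use the same mRNA libraries, so the measures are not independent.

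For GTB1 the association was higher by 2.1 ± 0.18 on the log2 scale in mta drought than in mta control (adjusted p = 1.71e-10) and by 1.23 ± 0.18 in WT drought than in WT control (adjusted p = 6.72e-06). AT1G67120 had 1.97 ± 0.28 (adjusted p = 1.25e-06) and 2.03 ± 0.28 (adjusted p = 3.76e-06) in the same comparisons. PAB4 was higher in mta drought than in mta control (0.94 ± 0.11, adjusted p = 5.98e-08), and its drought effect was higher in mta than in WT by 0.68 ± 0.16 (adjusted p = 0.00417). IBR10, an enzyme of auxin precursor breakdown, went the other way, at −0.47 ± 0.12 in mta (adjusted p = 0.0023) and −0.38 ± 0.13 in WT (adjusted p = 0.029).

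Span moved with this measure too: in mta drought against mta control 76.5% of member genes and 48% of all genes were higher in the longest set, 32.4% and 13.5% in the middle set and 13.6% and 3.38% in the shortest. In WT drought against WT control the same shares were 55.8% and 24.7%, 25.0% and 7.11%, and 10.6% and 3.77%. With the trend along span removed, 176 member genes were higher in mta (28.7%, against 10.5% of all genes) and 136 in WT (22.2%, against 5.29%). For the difference in drought effect between mta and WT it left 22 higher (3.59%, against 3.36%). Without WT drought mRNA replicate 1 the WT count was 162, and without replicate 3 it was 150. Without mta drought mRNA replicate 2, 75 member genes were higher in mta drought than in WT drought. The 85 moved to 48 at the lowest, without mta drought mRNA replicate 1, and the 21 and 44 lower counts to at most 47 and 82.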

How the data were processed

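The members and gene lists were chosen with earlier results of these data known. Per the submitters' processing notes the authors used FastQC, Trim Galore, cutadapt, STAR, SAMtools, bedtools, MACS2 and featureCounts with TAIR10. The deposited gene counts cover whole gene spans and were made with featureCounts 2.0.1 (mRNA, GMUCT) or 2.0.3 (polysomal), reverse-stranded except GMUCT, which was unstranded, per the file headers. The deposited peak lists give, per library and strand, a fold enrichment, a −log10 p-value and a −log10 q-value from the authors; the library behind the background is not given in the sources used here. Counts of non-coding RNA were not used.

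Peaks were merged separately on each strand where they overlapped or touched, and a library held a region when 1 base or more of a peak overlapped it. A region belonged to the gene of the same strand with the largest overlap. Shares of regions were computed per library and compared by exact permutation tests in SciPy 1.17.1, with p-values adjusted over 5 tests by Benjamini-Hochberg. Counts were tested with edgeR 4.0.16 (R 4.3.3) by quasi-likelihood with TMM scaling and filterByExpr (minimum count 10, minimum total 15), adjusted over all genes tested at 0.05. One model of 12 mRNA libraries and 2 models of 24 libraries, with assay by group terms, gave 5 comparisons each. The SE given with a log2 fold change was derived from the test, as its absolute value over the square root of the F statistic. CPM were computed on the TMM-scaled library sizes of the mRNA genes that passed the count filter. Scripts were tested on simulated data. Alternatives were DESeq2 1.42.0, other scaling, no count filter, a replicate block, removal of the trend along gene span, other peak thresholds, merging and overlap rules, and leaving out each library.

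Genes named are MTA, those with the most regions, those whose regions follow 4 presence patterns across groups, the 4 with the largest rise and the 4 with the largest fall of mRNA per comparison among those past the threshold with a mean log2 CPM of at least 2, and the 1 member of the gene lists. All 616 member genes matched a RefSeq locus, and 297 had a symbol. No genome sequence was used, so no sequences are given.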

Additional observations from a re-analysis of the deposited data

Results flagged for a closer look

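The 3′-most minus 5′-most share of members held had opposite signs in mta drought and WT drought. Its means were −7.36 percentage points in mta drought and 14.6 in WT drought, with every mta drought library negative and every WT drought library positive. Without WT control replicate 1 in the choice of members they were −11.3 and 7.17, and without replicate 2 −12.9 and 6.64, in mta drought and WT drought. It was −16.8 in mta control and, in the WT control libraries that chose the members, 10.4. Under drought the difference was tested and gave the smallest p that 3 against 3 libraries allow. That test does not account for the choice of members in WT control, which has the genotype of WT drought. Between the controls the difference was not tested, since WT control chose the members.

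The drought effect differed between mta and WT in mRNA for 58 member genes upwards (9.48%, against 19.6% of all genes) and 262 downwards (42.8%, against 18.0%), in the uncapped share for 88 upwards (14.4%, against 3.79%) and 16 downwards (2.61%, against 3.38%), and in polysome association for 85 upwards (13.9%, against 6.79%) and 16 downwards (2.61%, against 2.80%), each by the interaction term of edgeR's quasi-likelihood test. With the trend along gene span removed the 88 fell to 15 (2.45%, against 1.10%) and the 85 to 22 (3.59%, against 3.36%).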

How the results depend on the processing

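The difference of the 3′-most minus 5′-most share between mta drought and WT drought stayed between −23.7 and −18.0 points in all alternatives run. This range does not cover the sets of genes split by span or by where both regions sat, between which the difference varied more. The alternative that joins regions split by an intron was not run. Equal peak numbers, exactly 2 regions and a width limit were chosen after seeing the data. The cause of the changes below was not tested.

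With peaks of −log10 q of 5 or more there were 546 members in 266 genes, mta control held 81.2% of the 5′-most, and members minus single regions was 1.22. With a summit inside the region, WT drought held 80.4% of members, 88.2% of the 3′-most and 73.5% of the 5′-most, and mta control 82.8% of the 5′-most. With regions of all 3 WT control libraries (447 in 217 genes), mta drought held 81.5% and 88.3% (members and 5′-most), mta control 87.9% and 96.6%, and WT drought 94.2% and 92.0%, with 96.5% of the 3′-most, and members minus single regions was 1.17. With equal peak numbers (337 in 165 genes), mta drought held 77.4% and 83.2%, and WT drought 80.8%, with 86.1% of the 3′-most, and members minus single regions was 4.36.

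With the trend along span removed, mRNA in mta drought against mta control had 217 up and 194 down. The uncapped share had 54 up and 16 down (mta drought against WT drought) and 51 down (WT drought against WT control, 8.33%, against 2.62% of all genes). It also had 50 up (mta drought against mta control), and 15 up and 6 down (difference in drought effect). Polysome association had 31 up (mta control against WT control, 5.06%, against 2.84% of all genes) and 52 up and 64 down (mta drought against WT drought). It also had 136 up (WT drought against WT control) and 22 up (difference in drought effect). In mta drought against mta control it had 176 up, and 78 down (12.7%, against 13.5% of all genes). DESeq2 gave 1 up and 3 down for the uncapped share and 31 up for polysome association (mta control against WT control), and 34 down for the latter in WT drought against WT control, as did its size factors in edgeR. With no count filter the uncapped share had 6 up and 130 down (WT drought against WT control) and 73 down (mta drought against mta control). Shares over all genes were computed only for the main fit and with the trend removed. Counts of member genes from the other alternatives thus stand without them.

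With single libraries left out, the members numbered 496 to 1287 in 241 to 616 genes. Members held ranged over 64.5 to 81.5% in mta drought, 75.4 to 88.4% in mta control and 83.1 to 92.2% in WT drought, the 3′-most over 60.9 to 75.1%, 64.7 to 80.5% and 90.7 to 95.6%, and the 5′-most over 69.2 to 88.0%, 85.6 to 96.5% and 75.5 to 88.9% in the same groups. Members minus single regions ranged from −2.18 to 1.00, with the positive values 1.00 without WT control replicate 2 and 0.108 without WT drought replicate 1. In mRNA, mta control against WT control had 15 to 40 up and 36 to 82 down. The uncapped share had 0 to 1 down (mta control against WT control), 4 to 12 up and 11 to 73 down (WT drought against WT control), 25 to 62 down (mta drought against mta control), and 44 to 114 up and 8 to 17 down (difference in drought effect). Polysome association had 13 to 43 up and 24 to 50 down (mta control against WT control), 75 to 134 up (mta drought against WT drought), 150 to 254 up and 17 to 47 down (WT drought against WT control), 34 to 82 down (mta drought against mta control), and 48 to 96 up and 9 to 25 down (difference in drought effect).

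Replicate numbers mark no pairing in the labels, and same-numbered mRNA libraries of different groups had correlations of −0.0933 to 0.168. Within a group, mRNA and GMUCT libraries had a mean correlation of 0.0367 for the same number and −0.0178 for different numbers. For mRNA and polysomal libraries the means were 0.0205 and −0.0104. The main models used no pairing. The replicate block gave 72 up and 335 down in mRNA for mta drought against WT drought and moved no count by over 1.5 times.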

Other observations

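Other member genes with large drought responses included AT1G22330, at 0.253, 0 and 0 CPM in mta drought and 0 in all 3 WT drought libraries, against 9.52 to 16.3 CPM in the 6 control libraries. LUL4, a ubiquitin ligase of the LOG2-like family, had 0.506, 0 and 0.245 CPM in mta drought, against 7.92, 5.63 and 9.34 in mta control. TAT7, an aminotransferase of tyrosine metabolism, had 129, 157 and 144 CPM in mta drought, against 36.3, 39.4 and 42.5 in mta control (log2 1.86 ± 0.11, edgeR adjusted p = 3.45e-12). AT3G11420 had 102, 91.6 and 105 CPM in mta drought, against 35.3, 30.9 and 27.5 in mta control (1.68 ± 0.12, adjusted p = 2.59e-11).

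AT1G71360 had 59.7, 64 and 54.6 CPM in WT drought, against 12.5, 13.6 and 13.3 in WT control (log2 2.18 ± 0.14, adjusted p = 8.58e-12). AT3G54680 had 102, 102 and 119 CPM in WT drought, against 23, 24.5 and 24.5 in WT control (2.18 ± 0.13, adjusted p = 1.3e-12). AT2G40095 had 16.7, 10.9 and 16.9 CPM in mta drought, against 9.14, 13.1 and 12.5 in mta control, and 2.96, 2.75 and 4.06 CPM in WT drought, against 20.1, 21.7 and 18.2 in WT control. Its drought effect differed by 2.99 ± 0.32 on the log2 scale between mta and WT (adjusted p = 1.75e-07).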
